A study of Mus musculus with 8 samples.

Results

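The Slc25 genes encode the mitochondrial carriers, and their H3K36me3 was described here in mouse embryonic stem cells with and without knockdown of Setd2. The members are the RefSeq protein-coding genes of mm10 (GRCm38.p6) whose symbol is Slc25a followed by a number. They number 47 of 21883 protein-coding genes of the autosomes, X and Y. The knockdown cells (genotype label Setd2 knockdown, treatment label Dox +) received 1 µg/ml doxycycline for 4 days. The control cells (genotype label control, treatment label Dox -) received none. All cells were feeder-free, were described as carrying an inducible Setd2 knockdown, and grew as spheres in 2i medium with LIF, which combines a MEK inhibitor (1 µM PD0325901), a GSK3 inhibitor (3 µM CHIR99021) and leukemia inhibitory factor (1000 U/ml). By these labels the 2 conditions differ in doxycycline as well as in Setd2, so their effects cannot be told apart. The headers of the peak lists name them shSetD2 and shCont, and it is not clear whether the control is the same line without doxycycline or a separate line with a control hairpin. Each condition has 2 H3K36me3 ChIP libraries and 2 input libraries, and the labels do not say whether these came from separate cultures.

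The authors merged the 2 replicates before calling peaks, so each condition is 1 peak list, with no spread between replicates and no test between conditions. After removal of duplicates the merged ChIP libraries held 29416169 tags in knockdown and 36244210 in control, and the lists held 3040 and 30634 peaks. Setd2 itself had no knockdown peak and 11 control peaks, which describes its chromatin and not its transcript. Of 12 pluripotency genes, 2 had a knockdown peak and 10 a control peak, where 4.95% and 41.2% of all protein-coding genes did. Nanog was covered over 98.3% and Pou5f1 over 81.9% of their length in control, whereas Dppa5a and Utf1 had no base pair under a peak. Of 8 genes of fibroblast feeders none had a knockdown peak and only Pdgfrb a control peak, over 5.01%. In what follows a gene has a peak, or is marked, when the midpoint of at least 1 peak lies between its start and end, and its covered share is the percent of its length under peaks. Intervals in brackets are exact Clopper-Pearson 95% intervals, which cover counting error only.

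Mitochondrial carriers are small membrane proteins of the inner mitochondrial membrane, with a few members in other membranes. They exchange nucleotides, phosphate, carboxylates, amino acids, cofactors and metal ions between the cytosol and the matrix, and several substrates are served by a broadly used gene and by paralogs restricted to testis, brain, muscle or blood-forming cells. H3K36me3 is laid down behind elongating RNA polymerase II by the methyltransferase SETD2, so that it lies over the bodies of transcribed genes and is low at their starts.

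After Setd2 knockdown a single carrier gene, the phosphate carrier gene Slc25a3, held a peak. In knockdown cells 1 of 47 members had a peak (2.13%, 0.0539 to 11.3), where the share over all protein-coding genes was 4.95%. In control cells 30 of 47 members had one (63.8%, 48.5 to 77.3), and over all protein-coding genes 41.2% did. Of the 30 members marked in control, 1 also had a knockdown peak (3.33%, 0.0844 to 17.2). Over all 9013 control-marked genes this share was 10.6%, which lies inside the members' interval. None of the 17 members without a control peak had a knockdown peak, against a background of 0.995%. By the looser rule of at least 1 bp under a peak, 1 member was called in knockdown (5.17% of all genes) and 31 in control (44.8% of all genes). In base pairs, knockdown peaks covered 2124 bp of the members and control peaks 246010 bp.

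**Figure D1:**
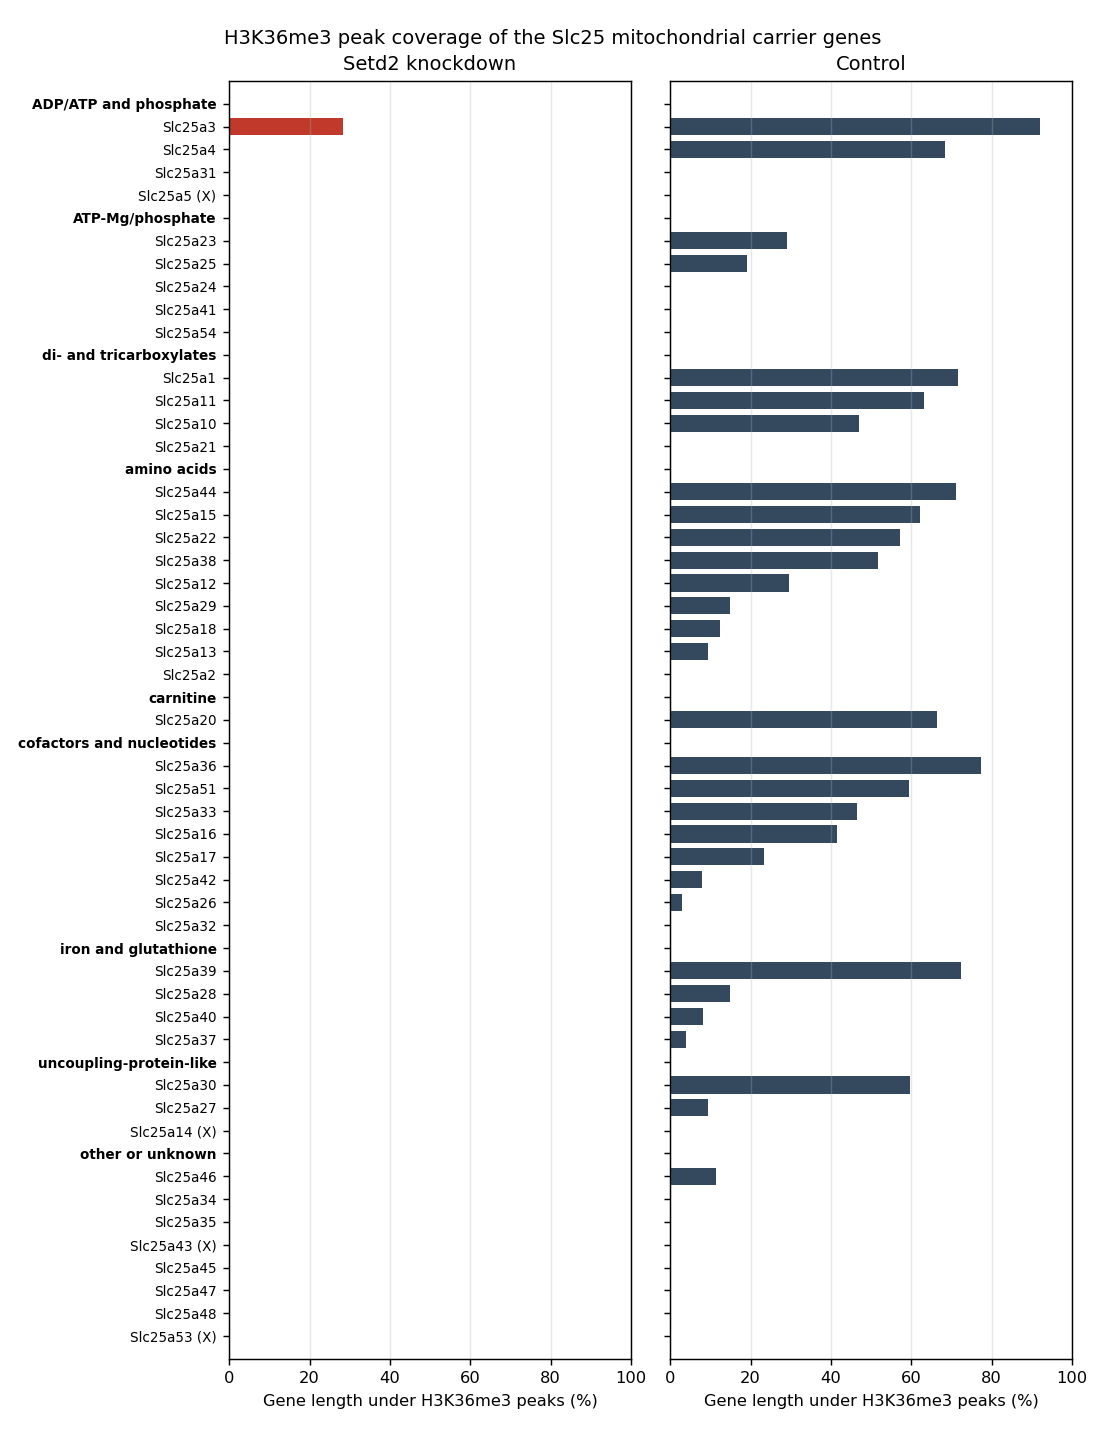
Percent of gene length under H3K36me3 peaks in Setd2 knockdown cells (left, red) and control cells (right, dark), 1 bar for each of 46 Slc25 genes, grouped by carried substrate; (X) marks X-linked genes. Slc25a3 has the only bar on the knockdown side, at 28.4%, while 30 genes have a bar on the control side, up to 92.1%.

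The marked members differed widely in how much of the gene was covered. The median over the 30 was 44.4% in control (quartiles 14.8% and 62.8%), and over all control-marked genes it was 37.9% (quartiles 13.9% and 65.0%). At least 50% of the gene was under control peaks in 13 of 47 members (27.7%, 15.6 to 42.6), and in 17.0% of all protein-coding genes. No member reached that share in knockdown, where 0.165% of all genes did. Of the 30 marked members, 17 held a single control peak and 13 held several, up to 9 in Slc25a12. Together they held 73 control peaks of 1058 to 16306 bp. The median length of these peaks was 2605 bp and the authors' median fold over local background 4.34, and over the whole control list these medians were 2451 bp and 4.34.

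Slc25a3 encodes the carrier that brings phosphate into the matrix for ATP synthesis. It spans 7.47 kb on chromosome 10 from 91116574 to 91124046 on the minus strand. Its knockdown peak ran from 91117731 to 91119854, a stretch of 2124 bp with 88 tags, a caller score of 131 (10 times the negative log10 of its p-value) and a fold of 4.00 over local background. Its control peak ran from 91112422 to 91123457, a stretch of 11036 bp with 756 tags, a score of 945 and a fold of 5.67. The covered share was thus 28.4% in knockdown and 92.1% in control, and the knockdown peak lay wholly inside the control peak. Per kb and 1000000 kept tags, the peaks held 1.41 tags in knockdown (1.13 to 1.74, exact Poisson) and 1.89 in control (1.76 to 2.03). These densities belong to stretches of unequal length that each had to pass the caller's threshold, so their ratio is no measure of the change at the same bases. The knockdown peak stood at percentile 83.7 of the knockdown list by score, and the control peak at percentile 97.7 of the control list.

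Slc25a3 was the only member covered over at least 90% in control. Of all 311 control-marked genes with that coverage, 32.2% had a knockdown peak. Another 12 members were covered over 50 to 90%, and none had a knockdown peak (interval up to 26.5%), against 11.4% of 3150 control-marked genes in that range. None of the 11 members covered over 10 to 50% (interval up to 28.5%) and none of the 6 covered under 10% (up to 45.9%) had one, where the backgrounds were 7.29% and 12.4%. These intervals all include their backgrounds. Slc25a3 did not have the densest control signal in the family. Slc25a39 (77.6 tags per kb) and Slc25a1 (71.6) exceeded its 68.5 tags per kb in the control list, and Slc25a39 also exceeded its score, at 1353.

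**Figure D2:**
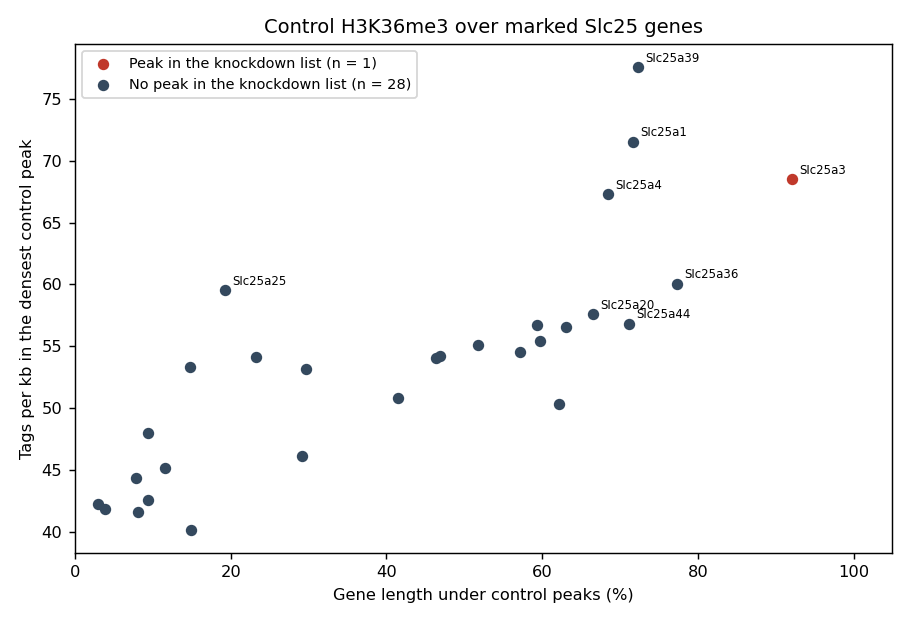
Tags per kb in the densest control peak of each of 29 Slc25 genes with a control peak, against the percent of gene length under control peaks; Slc25a3, the only gene with a knockdown peak, is red. Slc25a39 and Slc25a1 lie above Slc25a3 in density, and Slc25a3 lies farthest to the right, at 92.1%.

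The ADP/ATP carriers, which exchange matrix ATP for cytosolic ADP, were marked unevenly. None of the 3 genes had a knockdown peak, where 4.95% of all protein-coding genes did. In control, Slc25a4, the form of heart and skeletal muscle, on chromosome 8 from 46207168 to 46211062, was covered over 68.4% by 1 peak of 4310 bp with 67.3 tags per kb. Slc25a5, the form of proliferating cells, on chromosome X from 36795597 to 36798808, had no base pair under a peak in either list. Slc25a31, the testis form, on chromosome 3 from 40708871 to 40726094, had none either. The table of mouse genes also lists a pseudogene of Slc25a5, Slc25a5-ps, and the sources used here do not give how reads with several matches were placed, so the empty interval at Slc25a5 is uncertain.

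The 250 bases upstream of the RefSeq transcript start of Slc25a3 and of the 3 ADP/ATP carrier genes are shown 5′ to 3′, because these 4 genes range from the most covered carrier gene to genes with no peak (RefSeq, GRCm38.p6; chr10:91123968-91124217 and chr8:46211063-46211312 on the minus strand, chrX:36795347-36795596 and chr3:40708621-40708870 on the plus strand). The Slc25a3 window belongs to a start that lies inside the RefSeq gene span. Capitals mark matches on either strand to 3 motifs that share no bases in these windows. The ETS motif was searched as the letters CCGGAAG. For the CCAAT box its own name gives the letters. The GC box was searched as the letters GGGCGG.
Slc25a3: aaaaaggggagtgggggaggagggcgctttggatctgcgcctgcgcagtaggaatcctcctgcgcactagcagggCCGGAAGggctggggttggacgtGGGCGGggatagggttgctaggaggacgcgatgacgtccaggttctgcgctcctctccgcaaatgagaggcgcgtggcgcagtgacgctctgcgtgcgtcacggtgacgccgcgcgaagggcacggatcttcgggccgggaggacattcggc
Slc25a5: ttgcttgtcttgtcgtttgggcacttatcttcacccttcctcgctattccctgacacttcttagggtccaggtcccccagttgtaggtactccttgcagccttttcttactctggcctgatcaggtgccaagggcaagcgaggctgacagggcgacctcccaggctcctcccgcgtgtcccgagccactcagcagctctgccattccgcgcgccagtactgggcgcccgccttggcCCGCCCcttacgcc
Slc25a4: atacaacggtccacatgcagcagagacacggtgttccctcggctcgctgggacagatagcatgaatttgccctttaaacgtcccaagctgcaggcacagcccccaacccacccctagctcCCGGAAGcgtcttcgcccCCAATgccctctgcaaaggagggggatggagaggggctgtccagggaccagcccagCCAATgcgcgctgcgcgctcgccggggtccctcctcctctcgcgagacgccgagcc
Slc25a31: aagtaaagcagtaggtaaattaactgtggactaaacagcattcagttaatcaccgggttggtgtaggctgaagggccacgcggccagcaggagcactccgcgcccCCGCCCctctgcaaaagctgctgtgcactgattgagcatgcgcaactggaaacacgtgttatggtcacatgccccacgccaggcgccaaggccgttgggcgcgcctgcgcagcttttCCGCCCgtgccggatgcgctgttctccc
No control peak reached into any of these 4 windows. The Slc25a3 window held 27 CG dinucleotides, an ETS match and a GC box. The Slc25a4 window held 18 CG dinucleotides, an ETS match and CCAAT boxes. The windows of the unmarked Slc25a5 and Slc25a31, with 14 and 18 CG dinucleotides, held GC boxes alone. Slc25a31, without a peak, thus had as many CG dinucleotides as the marked Slc25a4.

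A promoter window was found for 36 of the 47 members, 23 marked and 13 unmarked in control. The median number of CG dinucleotides in the 250 bases was 18 in the marked and 7 in the unmarked members, and 10 over 17491 protein-coding genes. A CCAAT box on either strand stood in 13 of 23 marked and 3 of 13 unmarked members, and in 36.5% of all windows. A GC box stood in 17 of 23 and 7 of 13 (42.7% of all windows), an ETS match in 5 of 23 and 1 of 13 (9.14%), and the letters TATAAA in 0 of 23 and 1 of 13 (12.4%). These matches describe letters and not bound sites, and the 2 sets are small.

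The ATP-Mg/phosphate carriers adjust the matrix pool of adenine nucleotides. None of the 5 genes had a knockdown peak and 2 had a control peak, where 4.95% and 41.2% of all genes did. In control, Slc25a23 was covered over 29.1% by 2 peaks and Slc25a25 over 19.2% by 1 peak of 7105 bp. Slc25a24 and the testis paralogs Slc25a41 and Slc25a54 had no base pair under a control peak. Slc25a54 and Slc25a24 are next to each other among the protein-coding genes of chromosome 3, as are Slc25a41 and Slc25a23 on chromosome 17. In the second pair 1 neighbour was marked and the other was not.

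The di- and tricarboxylate carriers supply citrate and malate across the membrane for lipid synthesis and redox shuttles. None of the 4 genes had a knockdown peak (against 4.95% of all genes), and 3 had a control peak (interval 19.4 to 99.4%, against 41.2%). The citrate carrier gene Slc25a1 was covered over 71.7% in control, with a fold of 8.15. The oxoglutarate/malate carrier gene Slc25a11 was covered over 63.1%, by a peak that also touches Gp1ba. The dicarboxylate carrier gene Slc25a10 was covered over 46.9%. The oxodicarboxylate carrier gene Slc25a21 spans 485 kb and had no base pair under a peak in either list.

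Amino acid carriers had a knockdown peak in 0 of 9 cases (against 4.95% of all genes) and a control peak in 7 (77.8%, 40.0 to 97.2, against 41.2%). Most covered in control were Slc25a44, which carries branched-chain amino acids, at 71.1%, the ornithine carrier gene Slc25a15 of the urea cycle at 62.1%, the glutamate carrier gene Slc25a22 at 57.1%, and Slc25a38, which carries glycine for heme synthesis, at 51.7%. The aspartate/glutamate carriers of the malate-aspartate shuttle were marked as many separate peaks. Slc25a12 had 9 control peaks over 29.6% and Slc25a13 had 8 over 9.42%, and the density of these 17 peaks ran from 35.3 to 53.1 tags per kb. The basic amino acid carrier gene Slc25a29 was covered over 14.9%. Slc25a2, a relative of Slc25a15 that spans 1.35 kb, had no peak in either list. Slc25a18, the glutamate carrier of brain, had 12.3% of its length under a control peak but no peak midpoint. That peak spanned 20923 bp, lay with only 12.2% of its length in Slc25a18, and also touched Atp6v1e1.

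Carriers of cofactors and nucleotides had a knockdown peak in 0 of 9 cases and a control peak in 8 (88.9%, 51.8 to 99.7), where 4.95% and 41.2% of all genes did. The classes hold few genes each, and no class was tested against the others. The pyrimidine nucleotide carrier gene Slc25a36 was covered over 77.4% by 5 control peaks, and its paralog Slc25a33 over 46.4% by 6. The NAD carrier gene Slc25a51 was covered over 59.4%, Slc25a16, which is linked to coenzyme A, over 41.4%, and the peroxisomal Slc25a17 over 23.2%. The coenzyme A carrier gene Slc25a42 was covered over 7.82% and the S-adenosylmethionine carrier gene Slc25a26 over 2.92%, the lowest share of the marked members. A long peak that mostly covers Lrig1 reached 1409 bp into Slc25a26. The folate and FAD carrier gene Slc25a32 was the unmarked one, with no base pair under a peak. Slc25a20, which carries acylcarnitines for fatty acid oxidation, was covered over 66.5% in control by 1 peak of 16306 bp, the longest with its midpoint in a member.

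Iron and glutathione carriers had a knockdown peak in 0 of 4 cases (against 4.95% of all genes) and a control peak in 4 (interval from 39.8%, against 41.2%). The glutathione carrier gene Slc25a39 was covered over 72.3% and its paralog Slc25a40 over 8.14%. The Slc25a39 peak also touched Rundc3a, and 64.3% of its length lay in Slc25a39. The mitoferrins import iron. Slc25a28, the broadly used form, was covered over 14.8%, and Slc25a37, the form of erythroid cells, over 3.83%, by single peaks of 2568 and 1673 bp. Of the Slc25a28 peak, 1654 bp lay in the gene. Of the 3 uncoupling-protein-like genes, none had a knockdown peak and 2 had a control peak, where 4.95% and 41.2% of all genes did. Slc25a30 was covered over 59.8% by 6 control peaks and Slc25a27, a gene of the brain, over 9.42% by 2, whereas the X-linked Slc25a14 had none.

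Of the 8 members with other or unknown substrates, none had a knockdown peak and 1 had a control peak (12.5%, 0.316 to 52.7), where 4.95% and 41.2% of all genes did. That gene was Slc25a46, whose product sits in the outer membrane and acts in mitochondrial shape, covered over 11.5% by 2 peaks. Slc25a34, Slc25a35, Slc25a43, Slc25a45, Slc25a47, Slc25a48 and Slc25a53 had no base pair under a peak in either list.

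Tissue-restricted paralogs were marked in control in 3 of 9 cases (33.3%, 7.49 to 70.1), and the 38 other members in 27 (71.1%, 54.1 to 84.6). In knockdown these counts were 0 of 9 and 1 of 38. Over all protein-coding genes the shares were 41.2% in control and 4.95% in knockdown, and the restricted members' interval includes that control share. The intervals of the 2 sets overlap, and members were assigned to the list from general knowledge of the genes. The 3 restricted members with a control peak were Slc25a4, Slc25a27 and Slc25a37. Slc25a18, Slc25a31, Slc25a34 (muscle), Slc25a41, Slc25a47 (liver) and Slc25a54 had no peak midpoint. Some paralog sets pair a broadly used gene with a restricted one. Within them, restricted genes were marked in control in 3 of 7 cases (42.9%, 9.90 to 81.6). Broad ones were marked in 5 of 8 (62.5%, 24.5 to 91.5). These intervals overlap, and both include the 41.2% of all genes. The direction differed between sets. In the mitoferrin and glutamate sets the restricted gene had a smaller covered share than the broad one, at 3.83% against 14.8% and at 12.3% against 57.1%. The mitoferrin genes had nearly equal base pairs under control peaks and differ in length. These were 1673 bp in the 43.7 kb of Slc25a37 and 1654 bp in the 11.2 kb of Slc25a28. The 12.3% of Slc25a18 comes from a peak that has only 12.2% of its length in that gene. In the uncoupling-protein-like set the restricted Slc25a27 was covered over 9.42%, against 59.8% for Slc25a30 and 0 for Slc25a14. In the ADP/ATP set the restricted Slc25a4 was covered over 68.4%, against 0 for the broad, X-linked Slc25a5, and the other restricted gene, Slc25a31, was also at 0. In the ATP-Mg/phosphate set the restricted Slc25a41 and Slc25a54 were at 0, against 29.1% for Slc25a23, 19.2% for Slc25a25 and 0 for Slc25a24.

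The share of marked genes was also counted by chromosome and by gene length. All 4 X-linked members (Slc25a5, Slc25a14, Slc25a43 and Slc25a53) lacked a control peak (interval up to 60.2%), and over the 966 X-linked protein-coding genes 6.31% had one. Over autosomal genes the share was 43.3%, and it was 35.3% to 51.3% on single autosomes. Among autosomal members 30 of 43 had a control peak (69.8%, 53.9 to 82.8). Knockdown peaks were held by 0 of 4 X-linked members and 1 of 43 autosomal ones, against 0.104% and 5.24% of all genes. The labels used here do not give the number of X chromosomes of the cells, and the part of the X chromosome in the empty interval at Slc25a5 was not tested. By gene length, 8 of 15 members under 10 kb (53.3%, 26.6 to 78.7) had a control peak, as did 12 of 15 of 10 to 30 kb (80.0%, 51.9 to 95.7) and 10 of 17 of 30 kb or more (58.8%, 32.9 to 81.6). The members' intervals in these ranges overlap. The shares over all genes in the same ranges were 21.3%, 51.7% and 53.2%. The median length was 21.5 kb for the members and 17.2 kb for all genes.

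**Figure D3:**
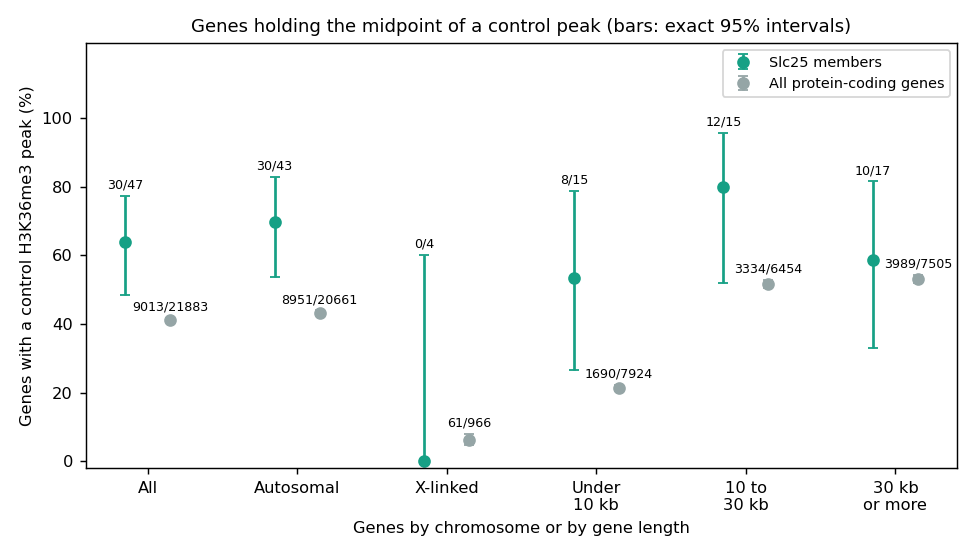
Percent of genes that hold the midpoint of a control H3K36me3 peak, for Slc25 genes (green) and all protein-coding genes (grey), over all genes, by chromosome and by gene length; points are shares, bars are exact 95% intervals and labels give marked over all genes. The X-linked points, 0 of 4 and 61 of 966, lie far below the autosomal ones, 30 of 43 and 8951 of 20661.

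Control peaks covered less of the 5′ ends of the carrier genes than of their middle and 3′ parts. Strand was known for 36 members, and 20 marked ones of 5 kb or longer were cut into 10 equal bins from the 5′ to the 3′ end. In knockdown, only the Slc25a3 peak gave a value, in bins 6 to 9. In control, the mean covered share was 6.45% in bin 1, 16.7% in bin 2 and 57.0% in bin 5. From there it did not rise steadily, at 49.9% in bin 8, 56.9% in bin 9 and 48.0% in bin 10. In the 2 kb before the gene Slc25a22 alone had any, and in the 2 kb after the gene the mean was 32.6%. Over 6826 control-marked genes the values were 8.20% in bin 1, 22.8% in bin 2, 42.1% in bin 5, 54.1% in bin 9 and 53.5% in bin 10. The members stood above all marked genes in bins 4 to 7 and 9 and below them in bins 1 to 3, 8 and 10, and these differences were not tested. Bins 6 to 10 were more covered than bins 1 to 5 in 17 of 20 members, and in 77.8% of all such genes. The 3 exceptions were Slc25a10, Slc25a23 and Slc25a29.

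**Figure D4:**
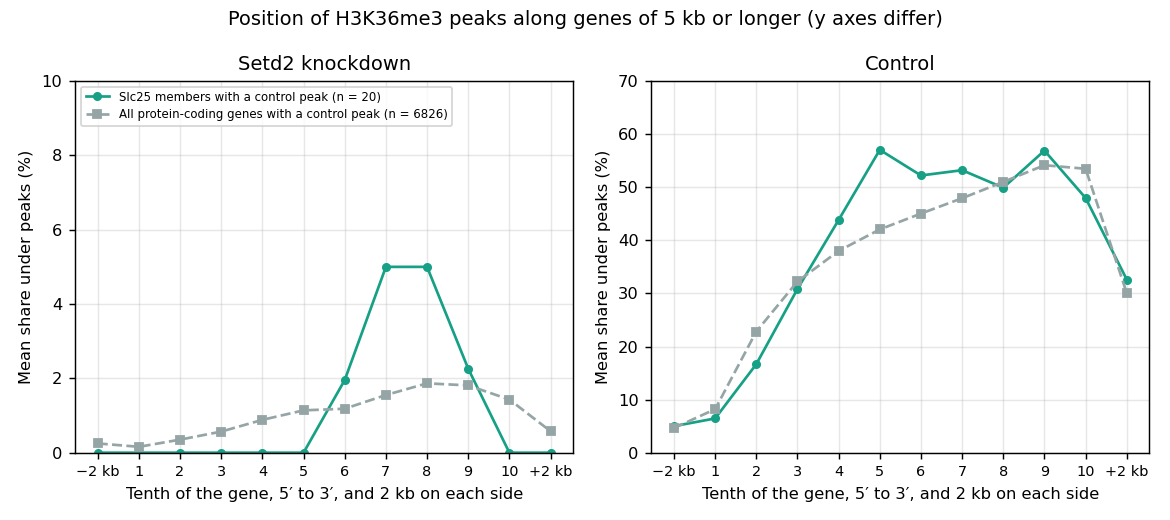
Mean percent under H3K36me3 peaks in 10 equal bins from the 5′ to the 3′ end and in the 2 kb on each side, in knockdown (left) and control (right, another y scale), for 20 control-marked Slc25 genes (green) and 6826 control-marked protein-coding genes (grey). In control the green line stands at 6.45% in bin 1 and 56.9% in bin 9 and the grey line at 8.20% and 54.1%, and the knockdown values of the Slc25 genes come from Slc25a3 alone.

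At the gene ends of the 23 marked members with a known strand, the knockdown peak covered neither end. Knockdown peaks covered the 5′ end of 0.0964% and the 3′ end of 0.922% of 7265 control-marked genes. A control peak covered the 5′ end in 1 (4.35%, interval up to 21.9) and the 3′ end in 11 (47.8%, 26.8 to 69.4). Over 7265 control-marked genes these shares were 1.82% and 47.6%. The exception at the 5′ end was Slc25a22, where a peak of 5743 bp that lies mostly over Pidd1 reached 225 bp into the gene. The first control peak with its midpoint in the gene began 0.589 kb from the 5′ end in Slc25a3, the shortest distance, and 65.7 kb from it in Slc25a13, the longest, with a median of 4.04 kb. In the 11 members with a peak over the 3′ end, it ran past that end by 524 bp in Slc25a11 to 4152 bp in Slc25a3. Slc25a4 is covered from 1.23 kb after its 5′ end to 1644 bp past its 3′ end.

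**Figure D5:**
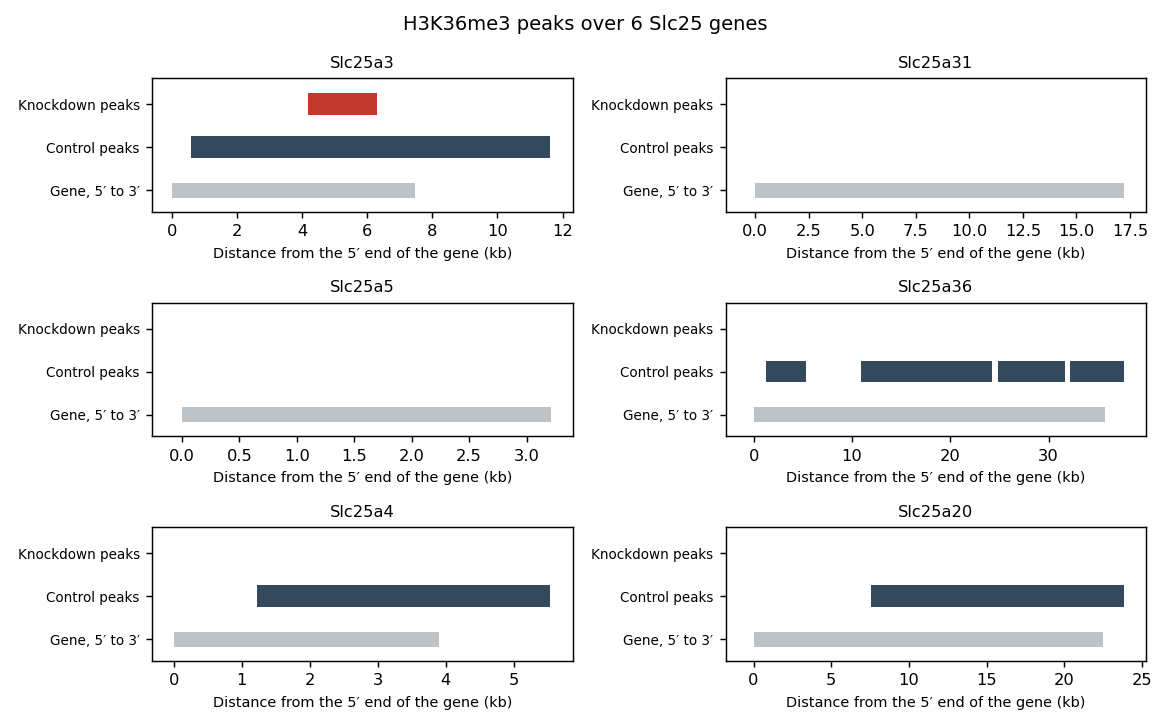
Knockdown peaks (red, top), control peaks (dark, middle) and gene span (grey, bottom) for 6 Slc25 genes, in kb from the 5′ end, each panel to its own scale. Slc25a3 alone has a knockdown peak, the control peaks of Slc25a3, Slc25a4, Slc25a36 and Slc25a20 start inside the gene and run past its 3′ end, and Slc25a5 and Slc25a31 have none; 2 of the 5 Slc25a36 peaks lie too close together to be told apart here.

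Other genes of mitochondrial transport were counted in the same way. Over 3 lists of 36 genes, 1 had a knockdown peak and 23 a control peak (63.9%, 46.2 to 79.2), against 4.95% and 41.2% of all protein-coding genes. Of the 5 carrier family genes with other symbols, none had a knockdown peak and 3 a control peak, led by Mtch2 (84.6%) and Mtch1 (56.1%), both outer membrane proteins, while of the uncoupling protein genes Ucp2 was covered over 46.0% and Ucp1 and Ucp3 had none. Of 10 genes for the import of carriers through the TIM22 complex, none had a knockdown peak and 6 a control peak. By the looser rule, at least 1 bp lay under a control peak in 9 of these 10. That held for 27 of the 36 genes over the 3 lists, and for 44.8% of all genes. The receptor gene Tomm70a and Timm29, a subunit of the complex, were both covered over 54.4%. Of 21 genes for other channels and transporters, 14 had a control peak, led by the porin gene Vdac2 (87.3%) and Slc8b1, which encodes a sodium-calcium exchanger (60.3%). The calcium uniporter gene Mcu was the only one with a knockdown peak, over 0.952% of its length against 3.08% in control.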

How the data were processed

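ChIP-seq of H3K36me3 and input was used from 8 libraries in 4 groups of 2, grouped by the titles. Per the submitters' processing notes, FastQC 0.11.5, Bowtie 1.1.2 and mm10 were used. Merged replicates were passed to MACS 1.4.2 by the authors, per the file headers, against merged inputs, with a p cutoff of 1e-05, 1 tag kept per position, and the larger data set scaled to the smaller. For each peak the deposited tables give the count of tags, not normalized, a score (10 times the negative log10 of its p-value), a fold over local background (the authors' ratio) and an FDR in percent. Scores and folds are the authors' own and describe peaks within their list. Peaks with an FDR above 5% are missing from the deposited BED files, and none of these touches a member.

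Duplicate removal took 23.9% of the ChIP tags in knockdown and 14.7% in control. Peaks were laid over genes of a RefSeq table (GRCm38.p6) with Python 3.11.15, numpy 2.4.6, pandas 2.3.3 and scipy 1.17.1; strand came from RefSeq promoter windows, and the interval code was tested on simulated data. With several transcript starts, the promoter nearest the 5′ end of the gene was used. Members and lists were chosen with earlier results of these data known. Of the members, 1 counts in every total but is not reported here by name or drawn by gene. The text names the other members, and from each other transport list the 2 genes most covered in control and any with a knockdown peak; Ucp1, Ucp2 and Ucp3 were added after their values were seen. The alternatives were peaks with an FDR of 5% or less, a score of 100 or more, the top-scoring control peaks, any overlap of 1 bp, a covered share of 10%, and members that overlap no other gene.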

Additional observations from a re-analysis of the deposited data

How the results depend on the processing

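The result that 1 of the marked members had a knockdown peak held under all 7 alternatives. The Slc25a3 peak passes these rules by its own values, with a score of 131, an FDR of 2.22% and 28.4% of the gene covered. It touches no other gene, and the setting with the top-scoring control peaks left the knockdown list whole. The count thus followed from these values and is no added support. The marked share that kept one ran from 3.23% (any overlap of 1 bp) to 14.3% (top-scoring control peaks). The latter setting cut control to its 3040 top-scoring peaks, as many as the knockdown list holds. With these 3040 control peaks, 7 members were marked, among them 1 tissue-restricted and 1 broadly used paralog, and the median control-covered share over all members was 0, against 12.3% with all peaks. For the alternatives, kept shares over all protein-coding genes are not given, nor are marked shares other than by the 1 bp rule. The 10.6% of all control-marked genes belongs to the main setting, so 14.3% cannot be set against it. With scores of 100 or more in both lists, 1 tissue-restricted member was marked. Other counts stayed within 1.5 times the reported count and other kept shares within its interval. The median control-covered share was 7.82% with scores of 100 or more, 9.42% without peaks that touch another gene and 14.9% over members that overlap no other gene. Leaving out peaks that touch more than 1 protein-coding gene, chosen after seeing the data, left 28 marked members. No paired analysis was possible because the replicates were merged before peaks were called, and for the same reason no replicate could be left out. A missing peak means that no stretch reached the caller's threshold (a score of 50 or more) at this depth, not that the mark is absent.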

Other observations

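Of the 29 carrier genes that were marked in control only, 1 had a knockdown peak within 10 kb of the gene (3.45%, 0.0873 to 17.8), and the median distance to the nearest was 192 kb. Over all 8056 protein-coding genes of that kind, the share was 5.25% and the median 185 kb, so the carrier genes were near the background. The carrier gene within 10 kb was Slc25a38, with a knockdown peak 2.16 kb away. Of the unmarked members, the testis paralog Slc25a41 had one at 6.57 kb. The X chromosome held 1 knockdown peak and 124 control peaks in all.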
